A study of Mus musculus with 6 samples.

Results

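The genes described here encode subunits of the nuclear RNA polymerases I, II and III. They are the 28 genes whose symbol begins with Polr1, Polr2 or Polr3 followed by a letter from a to m, out of 23099 symbols in the deposited files, and each has 1 row. RNA-seq of polyadenylated RNA from whole pancreas covered 3 libraries of wild-type (WT) mice and 3 of Ela1-Myc mice, all aged 8 weeks. In the Ela1-Myc line the Myc gene is driven by the promoter of elastase 1, a digestive enzyme gene of acinar cells, the enzyme-secreting cells that make up most of the pancreas. The 2 groups share tissue and age, and the labels give no strain, no sex and no statement that each library comes from a separate animal, so a p-value here reflects only how far these samples scatter, which may be technical. The comparison asks how the genes for the transcription machinery differ when Myc stays active in the adult acinar cell.

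RNA polymerase I makes the large ribosomal RNA precursor in the nucleolus, RNA polymerase II makes messenger RNAs, and RNA polymerase III makes transfer RNAs, the smallest ribosomal RNA and other short RNAs. Each enzyme joins subunits of its own to subunits that it shares with the others. MYC, a transcription factor of cell growth, is known to act on transcription by all of these enzymes, and the acinar cell is known for a very high rate of protein synthesis. The messenger RNAs of the subunits are themselves products of RNA polymerase II, and their level does not measure the activity of any polymerase.

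Values are the authors' adjusted FPKM, a count of fragments per transcript length and per library total, divided by 100000, so that levels can be compared between genes per length. The depth of the libraries is not given in these files. The deposited scale places most genes higher in Ela1-Myc: the median of 8802 tested genes lay 1.22 log2 units higher, and 0.22 log2 units higher after median-of-ratios scaling, which sets 1 factor per library from the genes above 0 in all 6 libraries. Such a factor also takes out a shift that most genes share. Test results are therefore given on both scales where both were fitted. WT replicates 1 to 3 listed 1061, 592 and 1426 of the tested genes at 0, against 0, 29 and 13 in Ela1-Myc replicates 1 to 3, and 4 of the 28 subunit genes, Polr1a, Polr1e, Polr1c and Polr2f, were at 0 in WT replicates 1 and 3. Since every cell needs these subunits, such a gene is only said to be listed at 0, and it is given without a mean or a fold. Fits without WT replicate 2 keep only the WT libraries with the most listed zeros, and calls gained there carry that limit. Myc stood at 52.0, 34.4 and 34.2 in Ela1-Myc replicates 1 to 3, at 4.10 in WT replicate 2 and at 0 in WT replicates 1 and 3.

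Sums of several cell type markers stood apart between the same groups on the deposited scale, and RNA quality overlapped. The RNA integrity number (RIN) of WT replicates 1 to 3 was 7.3, 7.3 and 7.1, and that of Ela1-Myc replicates 1 to 3 was 8.8, 7.2 and 8.3. In Ela1-Myc replicate 2, whose RIN lay within the WT range, 22 of the 25 tested subunit genes stood above every WT library, and 14 did so after scaling, beside 79.4% and 44.9% of all tested genes. The summed level of 7 macrophage markers was 0.711 to 49.2 in WT and 307 to 947 in Ela1-Myc, with Cd68, Emr1 and C1qa at 0 in at least 2 WT libraries, and that of 5 stellate cell and fibroblast markers was 43.7 to 89.1 and 290 to 431. Duct markers summed to 4.44 to 76.1 in WT and 131 to 278 in Ela1-Myc, and endothelial markers to 9.41 to 15.2 and 25.6 to 33.6. Scaling divides WT replicates 1 to 3 by 0.415, 0.892 and 0.610 and Ela1-Myc replicates 1 to 3 by 1.65, 1.57 and 2.14. Gaps in this direction therefore narrow after it. Marker sums were not computed after scaling, so whether these groups stay apart there is not shown. All 6 markers of dividing cells were listed at 0 in every WT library and summed to 23.8 to 40.0 in Ela1-Myc. On the deposited scale the sums of acinar, islet, lymphocyte and adipocyte markers overlapped between the groups. The 9 acinar markers summed to 269768 to 816383 in WT and 163508 to 369367 in Ela1-Myc. The share of 37 digestive enzyme genes in the summed values of a library does not depend on a scaling factor. It was 90.9%, 91.0% and 91.2% in WT replicates 1 to 3. In Ela1-Myc replicates 1 to 3 it was 73.3%, 60.9% and 69.5%, below every WT library. The part of these measures in the results was not tested. In whole tissue, fewer cells of a type and less RNA per cell cannot be told apart.

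Of the 28 subunit genes, 25 passed a filter that asked for a 6-library mean of 1 or more and were tested with limma across all 8802 genes. Polr3a, Polr3f and Polr3g did not pass it. On the deposited scale 18 of the 25 rose and none fell, where 70.2% of all tested genes rose and 0.239% fell, so the share of members called was close to that of all genes. The median log2 change was 1.51 for the 25 members and 1.22 for all tested genes. After scaling 7 rose and none fell, beside 17.1% and 7.1% of all tested genes, with a median of 0.52 for the members and 0.22 for all. Those 7 were Polr1a, Polr1b, Polr1e, Polr1c, Polr2f, Polr2h and Polr3e. Without Ela1-Myc replicate 2 or 3, 3 and 4 members rose after scaling, beside 6.85% and 6.17% of all tested genes. Quantile normalization, which gives all libraries the same distribution, left 6 higher (10.7% of all genes) and 1 lower, Polr3k (15.6% of all genes were lower).

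A gene whose WT mean lies under 1 passes the filter only through Ela1-Myc and so had to differ. This held for 9 of the 25 tested members, among them Polr1a, Polr1b, Polr1e, Polr2h, Polr3b, Polr3d, Polr3e and Polr3gl, and for 39.1% of all tested genes. All 9 rose on the deposited scale and 5 after scaling (92.9% and 37.1% of all such genes). Of the 16 with a higher WT mean, 9 and 2 rose (55.7% and 4.24%), the 2 being Polr1c and Polr2f, which are listed at 0 in WT replicates 1 and 3. The calls of Polr1b, Polr2h and Polr3e are subject to this limit; with no filter all 3 were also called on the deposited scale. Among the 21 members above 0 in all 6 libraries, 4 rose after scaling when the fit was made on such genes alone, where 9.25% of the genes rose, among them Polr1b, Polr2h and Polr3e. With no filter on low values 19 of 28 rose on the deposited scale, beside 36.7% of all 23099 symbols. These 2 shares are not alike, since only 8802 of the symbols reached a mean of 1. In addition, 4459 rows share 1 WT value and are at 0 in every Ela1-Myc library, so they could not rise. No member is among them. Every Ela1-Myc library lay above every WT library for 21 of the 25 tested members on the deposited scale (75.3% of tested genes) and for 12 after scaling (28.9%), while 1 member lay below after scaling (17.2%). The plot of the level in each library shows how far the groups lie apart for each gene.

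**Figure D1:**
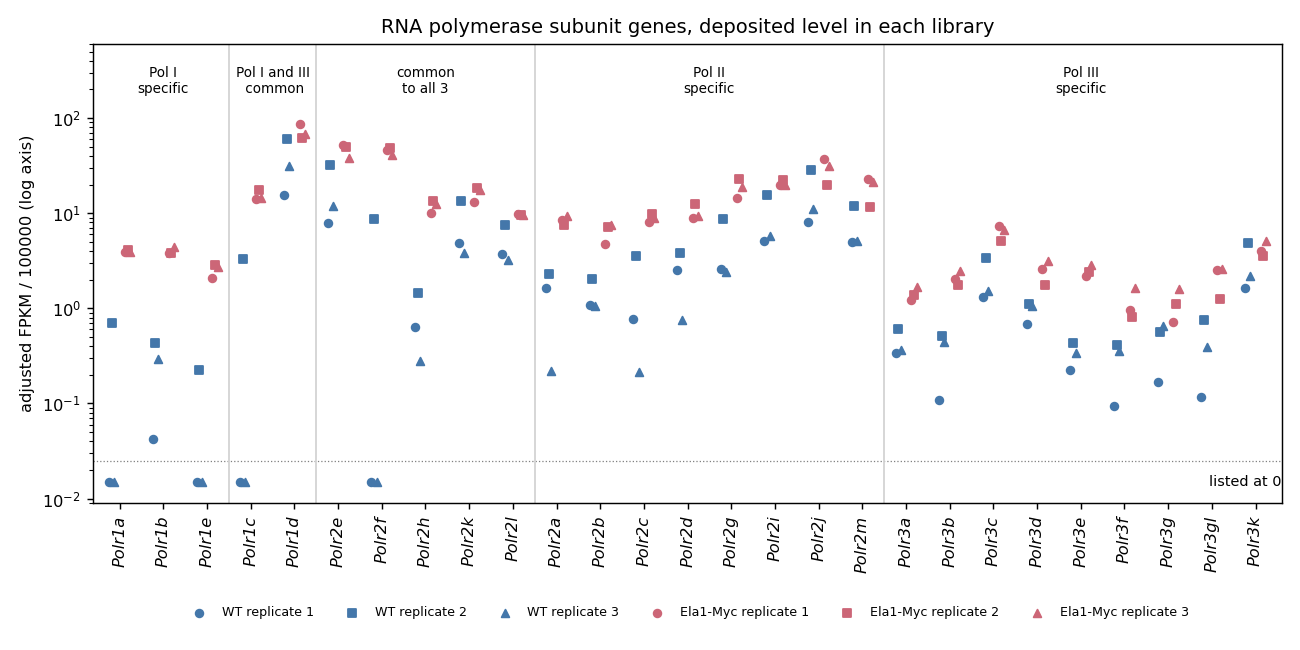
Level of each of 27 subunit genes (adjusted FPKM divided by 100000, log axis) in 3 WT libraries (blue) and 3 Ela1-Myc libraries (red); circles, squares and triangles are replicates 1, 2 and 3, and values listed at 0 are drawn below the dotted line. The WT points of Polr1b, at 0.0427 to 0.427, and of Polr2h, at 0.279 to 1.46, lie far below the Ela1-Myc points, whereas those of Polr3k and Polr2j overlap with them.

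Since MYC and its partner MAX bind the E-box CACGTG, a palindrome that reads alike on both strands, the promoter windows of the subunit genes were searched for these letters. RefSeq windows (GRCm38.p6) of 300 bases, from 250 before to 50 after the start of transcription, were at hand for 22 of the 28 genes. The motif lay in the window of 4 of the 22 genes (18.2%), beside 8.09% of 27025 genes with a window, and within the 250 bases before the start for 2 of the 22 (9.09%, beside 6.86%). All 4 are shown, 5′ to 3′ on the strand of the gene with the motif in capitals, because 2 of them, Polr2h and Polr3e, belong to genes that rose after scaling.
Polr2h: cttacttttctcCACGTGagggggtgcgcg
Polr3e: ccccgctcccccCACGTGtccggcggagtt
Polr3gl: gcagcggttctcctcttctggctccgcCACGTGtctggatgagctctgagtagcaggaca
Polr3c: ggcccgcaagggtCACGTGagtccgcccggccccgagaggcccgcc

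In Polr2h (chr16:20717837-20717866, plus strand) the motif begins at transcribed base 24, and in Polr3e (chr7:120917771-120917800, plus strand) at transcribed base 6. In Polr3gl (chr3:96594343-96594402, minus strand) it begins 194 bases before the start, and in Polr3c (chr3:96727644-96727689, minus strand) 237 bases before it. Polr3gl and Polr3c rose on the deposited scale only. The windows of Polr1a, Polr1b, Polr1e, Polr1c and Polr2f, which rose after scaling, do not hold these letters. A match is a description of the sequence, and binding was not measured here.

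The 3 subunits found only in RNA polymerase I were low in WT and rose on both scales, and each passed the filter only through Ela1-Myc. Polr1b (chromosome 2, 129100996 to 129126595, GRCm38), the partner of the largest subunit in forming the active site, stood at 0.0427, 0.427 and 0.295 in WT replicates 1 to 3 and at 3.82, 3.86 and 4.40 in Ela1-Myc replicates 1 to 3. The groups did not overlap. Its mean went from 0.255 ± 0.195 to 4.02 ± 0.325 (SD, n = 3 each), 15.8 times the WT mean and 6.41 times after scaling. The log2 change was 2.01 ± 0.264 (SE; limma adjusted p = 4.59e-05) and 1.29 ± 0.177 after scaling (limma adjusted p = 0.00433). It was called higher under all 24 alternatives computed, with log2 changes from 0.99 to 4.52 and adjusted p from 2.11e-10 to 0.0347.

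Polr1a (chromosome 6, 71909053 to 71979360), the largest subunit and the catalytic core of the enzyme, was at 0.692 in WT replicate 2, listed at 0 in WT replicates 1 and 3, and at 3.89, 4.09 and 3.88 in Ela1-Myc. The 3 Ela1-Myc libraries differed little among themselves, and all lay above WT replicate 2. Its limma adjusted p was 6.41e-05, and 0.0124 after scaling, taking the listed zeros as measured values. After scaling and without Ela1-Myc replicate 2 it was 0.0599. The scaled call was also lost without WT replicates 1 and 3, a fit that leaves 1 WT library. With a pseudocount of 1 on the deposited scale the calls of Polr1a, Polr1e, Polr1c and Polr2f, all listed at 0 in WT replicates 1 and 3, were among those lost. Polr1e (chromosome 4, 45018625 to 45033692), a peripheral subunit that helps bind initiation factors, was at 0.226 in WT replicate 2, at 0 in the other WT libraries, and at 2.07, 2.82 and 2.75 in Ela1-Myc (limma adjusted p = 7.17e-05; 0.00502 after scaling).

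The other RNA polymerase I subunits carry older symbols in the files and so fall outside the rule, but they can be set beside these. Cd3eap, the partner of Polr1e, was at 0.128 in WT replicate 2, at 0 in the other WT libraries and at 1.91, 1.98 and 2.37 in Ela1-Myc (limma adjusted p = 9.32e-05; 0.00342 after scaling). Twistnb, a subunit of the stalk, measured 0.263, 0.444 and 0.298 in the WT libraries, beside 1.70, 2.79 and 3.37 in those of Ela1-Myc (limma adjusted p = 0.00051; 0.0337 after scaling). The scaled call was lost without WT replicate 2 or 3 or Ela1-Myc replicate 2 or 3. Twistnb and Cd3eap had a WT mean under 1 and so passed the filter only through Ela1-Myc. Znrd1, a small zinc-binding subunit, gave 0.393, 5.91 and 0.948 for WT and 10.4, 14.6 and 12.2 for Ela1-Myc, and passed on the deposited scale only (limma adjusted p = 0.00191; 0.12 after scaling, and 0.00584 after scaling without WT replicate 2). Leaving out WT replicates 1 and 3 instead turned its scaled log2 change negative.

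Polr1c and Polr1d form the pair of assembly subunits that RNA polymerases I and III share. Polr1c was called on both scales and Polr1d on neither, and the difference between them was not tested. Polr1c (chromosome 17, 46243920 to 46248045) was at 3.27 in WT replicate 2, listed at 0 in WT replicates 1 and 3, and at 14.1, 17.5 and 14.5 in Ela1-Myc (limma adjusted p = 0.000132; 0.0275 after scaling). After scaling this call was lost when any single library other than WT replicate 2 was left out, with adjusted p from 0.0576 to 0.109. It was also lost after scaling without WT replicates 1 and 3, a fit that leaves 1 WT library. Polr1d (chromosome 5, 147077541 to 147111359) was the subunit gene with the largest mean in both groups. It had WT values of 15.5, 59.5 and 31.0 and Ela1-Myc values of 86.6, 62.0 and 67.7. Its log2 change was 1.19 ± 0.742 (SE; limma adjusted p = 0.156) and -0.31 ± 0.392 after scaling (limma adjusted p = 0.575). In WT replicate 2, where both have a value, Polr1c stood at 0.0550 of the level of Polr1d, and in Ela1-Myc at 0.162, 0.282 and 0.214.

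Of the 5 subunits common to all of the polymerases, 3 rose on the deposited scale (60%, beside 70.2% of all tested genes). After scaling 2 rose, Polr2h and Polr2f (40%, beside 17.1%). Polr2h passed the filter only through Ela1-Myc, and Polr2f is listed at 0 in WT replicates 1 and 3. Polr2h (chromosome 16, 20717826 to 20722265), a small subunit on the outer face of the core and one of the genes with an E-box near the start, measured 0.631, 1.46 and 0.279 in the WT libraries, beside 9.99, 13.5 and 12.5 in those of Ela1-Myc. The lowest Ela1-Myc library lay far above the highest WT library. The mean went from 0.790 ± 0.606 to 12.0 ± 1.79 (SD, n = 3 each), 15.2 times the WT mean and 5.66 times after scaling. The log2 change was 2.90 ± 0.373 (SE; limma adjusted p = 4e-05) and 1.86 ± 0.295 after scaling (limma adjusted p = 0.00714). Like Polr1b, Polr2h was called higher under all 24 alternatives (adjusted p from 4.86e-11 to 0.0377).

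Polr2f (chromosome 15, 79141367 to 79151767), a subunit that stabilises the clamp of each enzyme, was at 8.64 in WT replicate 2, listed at 0 in WT replicates 1 and 3, and at 45.9, 48.8 and 40.8 in Ela1-Myc. Its limma adjusted p was 0.000226, and 0.0327 after scaling; as for Polr1c, the scaled call was lost on leaving out any single library but WT replicate 2 (adjusted p from 0.0674 to 0.119). Without WT replicates 1 and 3, where it is listed at 0, the scaled adjusted p was 0.162 (limma), with the lone WT library assumed to vary like the other group.

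Polr2e, a subunit of the jaw, gave 7.83, 31.8 and 12.0 for WT and 51.6, 49.5 and 38.2 for Ela1-Myc. It passed the threshold narrowly on the deposited scale (limma adjusted p = 0.0493), lost the call without any 1 library except WT replicate 2 (adjusted p from 0.112 to 0.159), and showed a log2 change of 0.13 after scaling (adjusted p = 0.827). The 2 small zinc-binding subunits of the assembly platform were not called on either scale. Polr2k had WT values of 4.87, 13.5 and 3.85 and Ela1-Myc values of 13.2, 18.5 and 17.5 (limma adjusted p = 0.0614; 0.75 after scaling). Polr2l measured 3.76, 7.43 and 3.23 in the WT libraries, beside 9.78, 9.62 and 9.49 in those of Ela1-Myc (limma adjusted p = 0.0714; 0.344 after scaling). Both were called higher on the deposited scale without WT replicate 2 (adjusted p = 0.00138 and 0.00252), as were all 25 tested members and 80.8% of all tested genes.

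Subunits found only in RNA polymerase II rose in part on the deposited scale and in no case after scaling. Of 8 tested, 5 rose on the deposited scale (62.5%, near the 70.2% of all tested genes; median log2 change 1.74), and none was called in either direction after scaling (median 0.57). Polr2a (chromosome 11, 69734410 to 69758223), the catalytic subunit whose repeated tail is phosphorylated during transcription, gave 1.65, 2.29 and 0.217 for WT and 8.39, 7.57 and 9.33 for Ela1-Myc. The log2 change was 2.10 ± 0.406 (SE; limma adjusted p = 0.000636) and 0.99 ± 0.464 after scaling (limma adjusted p = 0.156), although the scaled values of the groups did not overlap. Polr2b (chromosome 5, 77310484 to 77349328), which completes the active site, had WT values of 1.09, 2.05 and 1.06 and Ela1-Myc values of 4.73, 7.15 and 7.48 (log2 change 1.64, limma adjusted p = 0.00117; 0.52 and 0.127 after scaling).

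Polr2c and Polr2j form the platform on which RNA polymerase II is assembled. Polr2c measured 0.766, 3.55 and 0.211 in the WT libraries, beside 8.09, 9.82 and 8.85 in those of Ela1-Myc (limma adjusted p = 0.000888; 0.106 after scaling, and 0.0209 after scaling without WT replicate 2). Polr2j gave 8.06, 28.5 and 11.2 for WT and 36.8, 19.7 and 31.4 for Ela1-Myc, so the groups overlapped (limma adjusted p = 0.178; 0.383 after scaling). The stalk subunits Polr2d and Polr2g, which bind the emerging RNA, rose on the deposited scale by 1.85 and 1.99 log2 units (limma adjusted p = 0.00251 and 0.00505) and not after scaling (0.63 and 0.66; adjusted p = 0.332 and 0.232). Polr2d had WT values of 2.52, 3.78 and 0.755 and Ela1-Myc values of 8.86, 12.4 and 9.45. Polr2g measured 2.57, 8.73 and 2.40 in the WT libraries, beside 14.6, 23.1 and 18.7 in those of Ela1-Myc.

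Polr2i, a subunit involved in proofreading, and Polr2m, which binds the enzyme and holds it in a form that depends on the Mediator complex, were not called on either scale. Polr2i gave 5.11, 15.7 and 5.79 for WT and 19.9, 22.3 and 20.0 for Ela1-Myc (limma adjusted p = 0.0537; 0.819 after scaling). Polr2m had WT values of 4.92, 12.0 and 5.13 and Ela1-Myc values of 22.7, 11.5 and 21.4, with Ela1-Myc replicate 2 just below WT replicate 2 (limma adjusted p = 0.0515; 0.80 after scaling). In the files the locus of Igfbp7 overlaps Polr2b and that of Dok4 overlaps Polr2c. Whether the authors' counting used the strand could not be read from the sources used here, so the values of both are uncertain.

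**Figure D2:**
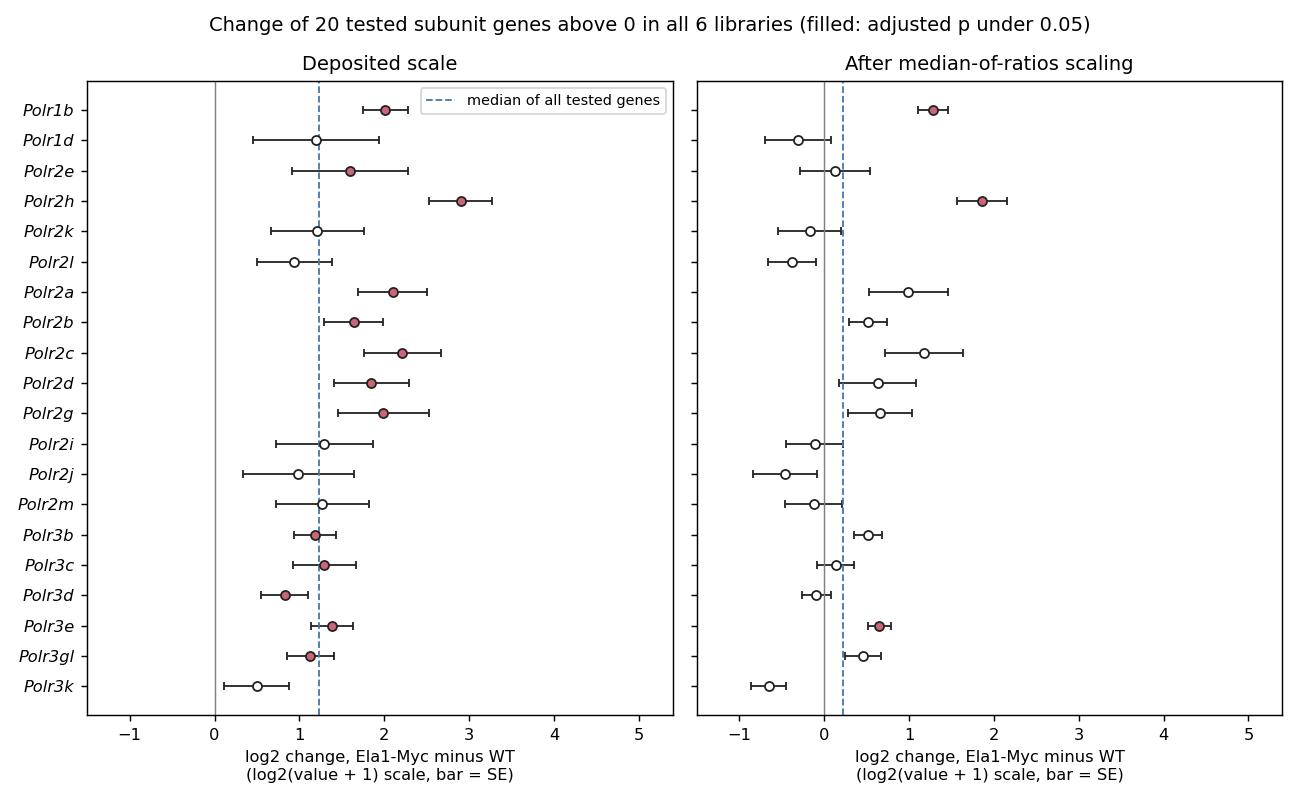
Log2 change with its SE for 20 tested subunit genes above 0 in all 6 libraries, on the deposited scale (left) and after median-of-ratios scaling (right), on the log2(value + 1) scale; filled points have a limma adjusted p under 0.05 and the dashed line is the median of all tested genes, at 1.22 and 0.22. On the left 13 points are filled, and on the right 3 are, Polr1b, Polr2h and Polr3e, with Polr3k lowest.

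Most subunits found only in RNA polymerase III were low in both groups. The highest of them were Polr3k and Polr3c, whose WT means lay above those of Polr2a, Polr2b and Polr2c. Polr3e alone of the class passed on both scales. Of 10 genes, 7 were tested, 6 rose on the deposited scale (median log2 change 1.19) and 1 rose after scaling (14.3%, near the 17.1% of all tested genes; median 0.46). Polr3e (chromosome 7, 120917744 to 120947432), part of a peripheral pair that works in initiation and termination, and likewise a gene with an E-box near the start, measured 0.222, 0.436 and 0.336 in the WT libraries, beside 2.20, 2.40 and 2.83 in those of Ela1-Myc. Its mean went from 0.331 ± 0.107 to 2.48 ± 0.321 (SD, n = 3 each), 7.48 times the WT mean and 2.66 times after scaling. The log2 change was 1.38 ± 0.245 (SE; limma adjusted p = 0.000341) and 0.65 ± 0.135 after scaling (limma adjusted p = 0.0175). The scaled call was lost without Ela1-Myc replicate 2 or 3 (adjusted p = 0.0697 and 0.0695), and quantile normalization gave 0.28 (adjusted p = 0.19).

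The other member of that pair, Polr3d, gave 0.676, 1.10 and 1.07 for WT and 2.58, 1.75 and 3.11 for Ela1-Myc (limma adjusted p = 0.0168; 0.703 after scaling). Its deposited-scale call was lost without WT replicate 1 or Ela1-Myc replicate 3 (adjusted p = 0.0515 and 0.0765). Crcp, a subunit of the stalk that falls outside the rule, measured 0.767, 1.71 and 0.665 in the WT libraries, beside 3.06, 4.27 and 4.58 in those of Ela1-Myc (limma adjusted p = 0.00254; 0.291 after scaling).

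Of the catalytic subunit genes of RNA polymerase III, Polr3b was tested and did not pass after scaling, and Polr3a did not reach the filter. Polr3a (chromosome 14, 24448694 to 24487046), the largest subunit, gave 0.340, 0.611 and 0.368 for WT and 1.23, 1.39 and 1.69 for Ela1-Myc. That is 3.27 times the WT mean on the deposited scale and 1.15 times after scaling, and with no filter on low values its limma adjusted p was 0.0273. Polr3b (chromosome 10, 84622437 to 84727178), the partner of Polr3a at the active site, had WT values of 0.107, 0.508 and 0.443 and Ela1-Myc values of 2.01, 1.74 and 2.44 (log2 change 1.19, limma adjusted p = 0.00113; 0.52 and 0.063 after scaling).

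Polr3c, Polr3f and the paralogues Polr3g and Polr3gl encode the subcomplex that opens the promoter, in which either Polr3g or Polr3gl takes 1 place. Polr3c measured 1.32, 3.37 and 1.53 in the WT libraries, beside 7.27, 5.05 and 6.59 in those of Ela1-Myc (limma adjusted p = 0.0076; 0.67 after scaling). Polr3f gave 0.0932, 0.410 and 0.357 for WT and 0.960, 0.818 and 1.64 for Ela1-Myc, with a limma adjusted p of 0.0432 on the deposited scale when no filter was applied. After scaling its groups overlapped, with 1.47 times the WT mean. Polr3f was thus among the lowest members in both groups.

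Polr3gl (chromosome 3, 96577874 to 96594158), known as the form of most adult tissues, had WT values of 0.117, 0.760 and 0.391 and Ela1-Myc values of 2.55, 1.26 and 2.57 (log2 change 1.13, limma adjusted p = 0.00318; 0.46 and 0.147 after scaling). Polr3g (chromosome 13, 81673837 to 81711013), known as the form of stem cells and tumour cells, measured 0.169, 0.562 and 0.646 in the WT libraries, beside 0.721, 1.10 and 1.59 in those of Ela1-Myc, and was not called on the deposited scale without a filter (limma adjusted p = 0.123). After scaling its groups overlapped, with 0.896 times the WT mean. The ratio of Polr3g to Polr3gl within a library was 1.44, 0.739 and 1.65 in WT and 0.283, 0.870 and 0.618 in Ela1-Myc. These ratios overlapped, since Ela1-Myc replicate 2 lay above WT replicate 2. Reads shared by the paralogues could move their single values.

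Polr3k (chromosome 2, 181864360 to 181870826), the small subunit that cleaves RNA and serves in termination, was the only tested member whose scaled groups were apart in the lower direction. It gave 1.65, 4.88 and 2.18 for WT and 3.99, 3.59 and 5.08 for Ela1-Myc, with a log2 change of 0.50 ± 0.379 (SE; limma adjusted p = 0.241). After scaling its values were 3.98, 5.47 and 3.57 in WT and 2.42, 2.28 and 2.37 in Ela1-Myc, so that every Ela1-Myc library lay below every WT library. The scaled log2 change was -0.65 ± 0.207 (limma adjusted p = 0.0616). Under quantile normalization it was called lower by -0.99 (adjusted p = 0.0139), and without WT replicate 2 it was called higher on the deposited scale (adjusted p = 0.0148).

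Ratios within a library do not depend on a scaling factor, but they do depend on which genes are summed and on listed zeros. The summed level of the 3 RNA polymerase I subunits was 0.160%, 1.76% and 1.10% of the summed level of the 8 RNA polymerase II subunits in WT replicates 1 to 3. In Ela1-Myc it was 7.88%, 9.48% and 8.71%, above every WT library. Polr1b alone, which has a value in all libraries, made up 0.160%, 0.558% and 1.10% of the RNA polymerase II sum in WT and 3.08%, 3.40% and 3.48% in Ela1-Myc. With Twistnb, Cd3eap and Znrd1 added, the RNA polymerase I share was 2.62%, 10.2% and 5.76% in WT and 19.2%, 26.6% and 22.9% in Ela1-Myc, and the difference in log2 ratio was 2.08 in place of 3.68. The 3.68 counts the listed zeros of Polr1a and Polr1e as measured values. Without WT replicate 1 that difference of 3.68 was 2.64, and with the member above 0 in all 6 libraries alone, Polr1b, it was 2.84. Polr1b, Twistnb and Znrd1, each above 0 in all 6 libraries, together made up 2.62%, 8.87% and 5.76% in WT. In Ela1-Myc they made up 12.9%, 18.8% and 15.8%, and the difference in log2 ratio was 1.61. The groups stayed apart with each of these sets of genes. The sum of the 10 RNA polymerase III subunits was 17.8%, 17.5% and 29.4% in WT and 21.2%, 19.1% and 24.8% in Ela1-Myc, so the groups overlapped. Common subunits summed to 64.0%, 82.2% and 72.4% in WT and to 105.1%, 123.2% and 93.7% in Ela1-Myc. That last gap rests on Polr2f: with members above 0 in all 6 libraries alone, the difference in log2 ratio fell from 0.56 to 0.01. These sums are scores over the members and were not tested.

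Among the common subunits, the level of Polr2h against Polr2k was 0.130, 0.108 and 0.0725 in WT and 0.757, 0.727 and 0.712 in Ela1-Myc. Within RNA polymerase III, Polr3e against Polr3k was 0.134, 0.0894 and 0.154 in WT and 0.552, 0.670 and 0.557 in Ela1-Myc. Both pairs were chosen after their values were seen and serve as a description. By contrast, the ratio of the catalytic subunits Polr2a and Polr2b was 1.51, 1.12 and 0.205 in WT and 1.77, 1.06 and 1.25 in Ela1-Myc and overlapped. The subunits of 1 enzyme thus stood in unequal proportion at the level of messenger RNA in both groups.

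**Figure D3:**
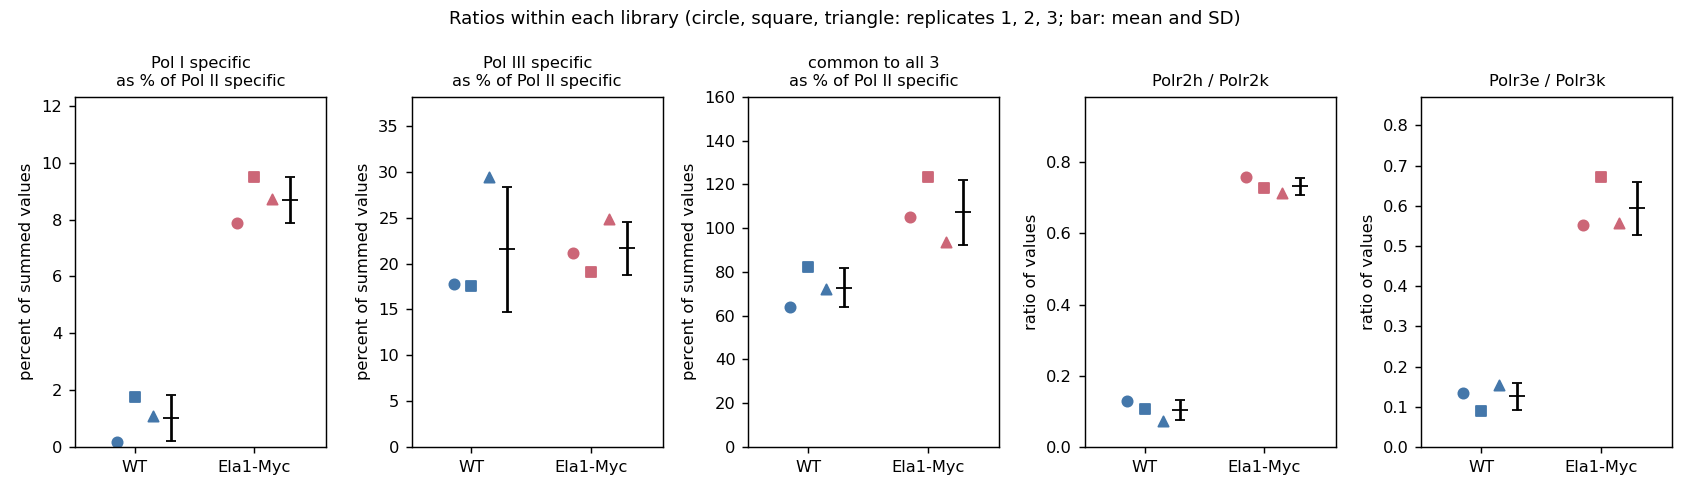
Ratios within each library: summed levels of RNA polymerase I, RNA polymerase III and common subunits as percent of the RNA polymerase II sum (first 3 panels), and the ratios Polr2h to Polr2k and Polr3e to Polr3k (last 2 panels), for WT (blue) and Ela1-Myc (red), with the mean and SD as bars. The RNA polymerase I share is 0.160% to 1.76% in WT and 7.88% to 9.48% in Ela1-Myc, while the RNA polymerase III shares overlap.

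By level per length, Polr1d, Polr2e and Polr2j led in WT, with means of 35.3 ± 22.3, 17.2 ± 12.8 and 15.9 ± 11.0 (SD, n = 3 each). These SDs hold differences between libraries that the genes share. Within each WT library Polr1d stood above Polr2e and Polr2j, whose own order varied between libraries. In Ela1-Myc Polr1d led with 72.1 ± 12.9, followed by Polr2e with 46.4 ± 7.17 and Polr2f, at 45.9, 48.8 and 40.8. The order of Polr2e and Polr2f varied between the Ela1-Myc libraries. At the low end in Ela1-Myc stood Polr3a with 1.44 ± 0.232, Polr3f with 1.14 ± 0.440 and Polr3g with 1.14 ± 0.436. Within each Ela1-Myc library Polr3a lay above Polr3f and Polr3g, whose own order varied. Genes with longer transcripts had lower levels: across the 24 members above 0 in all 6 libraries, Spearman's rho between mean level and transcript length was -0.71, against -0.45 across 6281 tested genes. The scaled ratio of group means went with transcript length with a rho of 0.40 across the same 24 members and of 0.05 across the 6281 genes. These correlations are across genes, which share libraries and are not independent replicates.

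Factors that bring the polymerases to their promoters were tested in the same fit, in which 70.2% of all tested genes rose on the deposited scale and 17.1% after scaling. The limit given for genes with a WT mean under 1 holds for these lists too. Of all such genes, 92.9% rose on the deposited scale and 37.1% after scaling. Genes called after scaling that fall under it include Taf1d, Snapc4, Supt6h and Ruvbl2. Of 7 factors of RNA polymerase I initiation and termination, 5 were tested, and all 5 rose on the deposited scale and 2 after scaling, Ubtf and Taf1d. Ubtf (chromosome 11, 102304560 to 102319096), which opens ribosomal DNA chromatin, had WT values of 0.587, 2.20 and 0.479 and Ela1-Myc values of 7.22, 5.43 and 8.06 (log2 change 2.00, limma adjusted p = 0.000466; 0.98 and 0.0421 after scaling). Its scaled call was lost without any 1 library other than WT replicate 2 (adjusted p from 0.0829 to 0.131). Rrn3, which carries the enzyme to the promoter in response to growth signals, measured 0.492, 1.10 and 0.788 in the WT libraries, beside 2.92, 2.81 and 4.37 in those of Ela1-Myc (limma adjusted p = 0.00169; 0.117 after scaling). The promoter selectivity factors Taf1b and Taf1c rose on the deposited scale, by 1.21 and 1.03 log2 units, and were not called after scaling (limma adjusted p = 0.112 and 0.274).

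RNA polymerase III factors numbered 11 tested of 16, of which 10 rose on the deposited scale and 1 after scaling (9.09%), Snapc4 (median log2 change 1.02, and 0.02 after scaling). Maf1, the repressor of RNA polymerase III, gave 0.683, 3.90 and 0.616 for WT and 11.6, 10.8 and 10.8 for Ela1-Myc. Its log2 change was 2.35 ± 0.453 (SE, limma adjusted p = 0.000615) and 1.25 ± 0.384 after scaling (limma adjusted p = 0.0551, and 0.00562 without WT replicate 2). In the scaled fit limited to genes above 0 in all 6 libraries Maf1 passed the threshold (limma adjusted p = 0.0350). Brf1, which brings the enzyme to transfer RNA genes, had WT values of 1.18, 2.50 and 1.44 and Ela1-Myc values of 3.46, 2.16 and 4.08 (log2 change 0.65, limma adjusted p = 0.086, and 0.0222 without WT replicate 2; -0.40 and 0.151 after scaling). Gtf3c6 and Snapc5 rose on the deposited scale, by 1.53 and 1.24 log2 units, and were not called after scaling (limma adjusted p = 0.255 and 0.282).

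General factors of RNA polymerase II rose for 13 of 15 tested on the deposited scale and for 5 after scaling (Gtf2f1, Gtf2f2, Gtf2h2, Ercc2 and Ercc3), with medians of 1.22 and 0.42. All 5 had a WT mean under 1 and so passed the filter only through Ela1-Myc. Tbp, the TATA-binding protein that all of the polymerases use, measured 0.647, 0.621 and 0.547 in the WT libraries, beside 1.79, 2.90 and 2.88 in those of Ela1-Myc (limma adjusted p = 0.00224; 0.41 after scaling). Gtf2b and Gtf2h4 had the largest scaled changes among members above 0 in all libraries, 1.15 and 1.14, and missed the threshold there (limma adjusted p = 0.0639 and 0.0527). Without WT replicate 2 both passed it after scaling (adjusted p = 0.00929 and 0.0192), in a fit that keeps the WT libraries with the most listed zeros. Both also passed narrowly in the scaled fit limited to genes above 0 in all 6 libraries (limma adjusted p = 0.0425 and 0.0317). In that fit 9.25% of the genes rose, and Gtf2h4 falls under the limit for a WT mean under 1.

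Pausing and elongation factors rose for 12 of 14 tested on the deposited scale and for 2 after scaling (14.3%), Supt6h and Whsc2 (medians 1.48 and 0.38). Supt6h, a histone chaperone that travels with the enzyme, gave 0.191, 1.04 and 0.309 for WT and 4.28, 4.08 and 4.68 for Ela1-Myc (log2 change 1.86, limma adjusted p = 0.000168; 1.04 and 0.0147 after scaling). Its scaled call was lost without WT replicate 3 or Ela1-Myc replicate 2 or 3 (adjusted p = 0.055, 0.0655 and 0.0587). Cdk9, the kinase that releases paused polymerase, had WT values of 0.633, 1.08 and 1.03 and Ela1-Myc values of 3.68, 1.64 and 5.01. Its limma adjusted p was 0.00759, 0.0538 without Ela1-Myc replicate 3, and 0.573 after scaling. Supt5h and Paf1 rose on the deposited scale, by 2.07 and 1.86 log2 units, and did not pass after scaling (limma adjusted p = 0.154 and 0.0803; 0.0415 and 0.0107 without WT replicate 2). Leaving out WT replicates 1 and 3 instead turned the scaled log2 change of Supt5h negative.

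Assembly factors of the polymerases numbered 9 tested of 10 found, of which 8 rose on the deposited scale and 3 after scaling, Ruvbl1, Ruvbl2 and Pfdn2. These 3 were each listed at 0 in at least 1 library. The helicase Ruvbl2, part of the chaperone complex that builds polymerases in the cytoplasm, was at 0.390 in WT replicate 2, at 0 in the other WT libraries and at 13.2, 17.5 and 13.5 in Ela1-Myc (limma adjusted p = 2.53e-06; 0.00103 after scaling). Gpn1, a GTPase for nuclear import of the assembled enzyme, rose by 1.53 log2 units (limma adjusted p = 0.00108; 0.0976 after scaling). Its relative Gpn2 showed 0.65 (adjusted p = 0.0979, and 0.0352 without WT replicate 2) and -0.50 after scaling (adjusted p = 0.166).

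The single-subunit polymerase of mitochondria, Polrmt (chromosome 10, 79736125 to 79746581), measured 0.581, 1.01 and 0.665 in the WT libraries, beside 3.25, 2.04 and 2.91 in those of Ela1-Myc. It rose by 1.09 log2 units on the deposited scale and was not called after scaling (0.20; limma adjusted p = 0.00335 and 0.415). Its cofactors Tfam and Tfb2m rose on the deposited scale, by 1.16 and 1.07 log2 units, and showed 0.35 and -0.04 after scaling (adjusted p = 0.147 and 0.89). The deposited-scale call of Tfb2m was lost without WT replicate 3 or Ela1-Myc replicate 3 (adjusted p = 0.0687 and 0.0668).

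**Figure D4:**
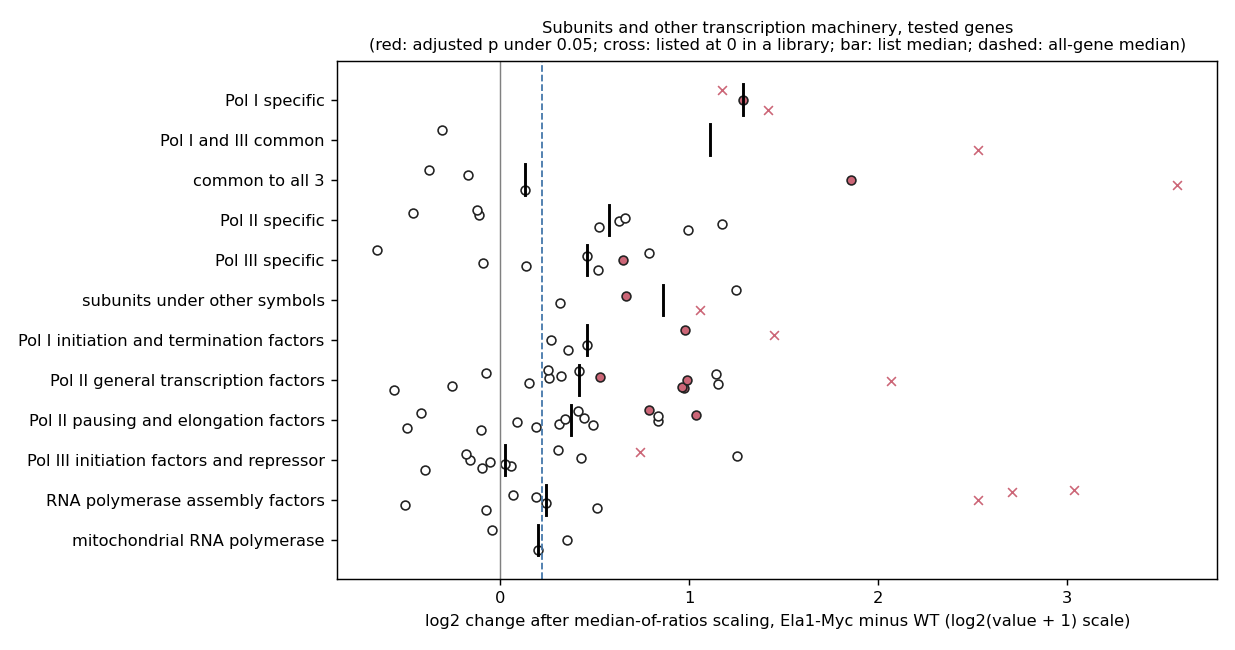
Log2 change after median-of-ratios scaling (log2(value + 1) scale) of tested subunit genes and of tested genes of the other transcription machinery, 1 point per gene; red marks a limma adjusted p under 0.05, crosses are genes listed at 0 in a library, whose place depends on those zeros, black bars are list medians and the dashed line is the all-gene median of 0.22. The median of the RNA polymerase I subunits lies at 1.29 and that of the RNA polymerase III factors at 0.02.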

How the data were processed

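RNA-seq values of 3 WT and 3 Ela1-Myc pancreas libraries were used as deposited: 23422 rows with 1 adjusted FPKM value each, per the file headers. Per the labels' protocols, ERCC spike-in RNA was added and stranded libraries were made. The tools TopHat2 2.0.4, Cufflinks 2.0.2, Bowtie, CASAVA 1.8, affy and FastQC 0.9.4 and the build GRCm38 (mm10) are named, per the submitters' processing notes. How the authors adjusted the FPKM, and the depth, are not given in the sources used here. All values were divided by 100000. Where a symbol had several rows (187 symbols), that of highest mean was used. The 8802 genes whose mean reached 1 entered limma 3.58.1 (R 4.3.3) as log2(value + 1), with the trend option and the group as the only term. Tests were two-sided, and p-values were adjusted by Benjamini and Hochberg over those genes, with a threshold of 0.05. A log2 change on this scale understates the change of low genes. With 3 against 3 libraries an exact permutation test cannot go below p = 0.1, so none is printed. The fit was tested on simulated data. Locus starts in the files count from 0 and were raised by 1. Library replicates were numbered in accession order and pair nothing.

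Named are the subunit genes (1 is counted but not reported singly here), fixed genes of each other list, and up to 2 more per list with the largest absolute scaled change among genes above 0 in all libraries. Members and lists were chosen with earlier results of these data known. Alternatives covered scale, pseudocount, filter, weights, trend and each library left out; leaving out WT replicates 1 and 3 together was added after seeing the data. Python 3.11.15 with matplotlib 3.10.9 drew the figures.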

Additional observations from a re-analysis of the deposited data

How the results depend on the processing

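Direction and call of the subunit genes rested mostly on the scale, while Polr1b and Polr2h were called higher under every alternative computed. Both passed the filter only through Ela1-Myc, and every alternative but the fit with no filter kept that filter. No fit without the filter was made after scaling, so the alternatives do not lift this limit there. The 18 members called higher on the deposited scale numbered 7 after median-of-ratios scaling, 6 under quantile normalization, 8 with the enzyme genes left out and totals made equal, 10 with a pseudocount of 1 on the deposited scale, and 4 when scaled genes were limited to those never at 0. With 1 library left out they numbered 3 to 25 over both scales (3 to 8 after scaling). Without WT replicates 1 and 3 together, 3 were higher and 1 lower after scaling; quantile normalization also gave 1 lower.

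Over all genes, 6182 higher and 21 lower calls became 1504 and 625 after scaling, 938 and 1371 under quantile normalization, 1713 and 380 without enzyme genes, 3369 and 6 with the deposited-scale pseudocount, and 647 and 685 when scaled genes were limited to those never at 0. Lower calls numbered 132 with array weights and 41 without the trend. With 1 library left out, on either scale, there were 543 to 7113 higher and 5 to 581 lower calls. Without WT replicates 1 and 3 there were 2812 higher and 99 lower calls, and 1058 and 597 after scaling.

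Changes of sign of single genes were these. After scaling the log2 change became -0.31 for Polr1d, -0.11 for Polr2i, -0.46 for Polr2j, -0.12 for Polr2m, -0.17 for Polr2k, -0.38 for Polr2l, -0.093 for Polr3d, -0.65 for Polr3k, -0.40 for Brf1, -0.50 for Gpn2 and -0.044 for Tfb2m, with the same values when the fit was limited to genes above 0 in all libraries. Under quantile normalization it became -0.42 for Polr1d, -0.30 for Polr2i, -0.62 for Polr2j, -0.34 for Polr2m, -0.022 for Polr2e, -0.38 for Polr2k, -0.64 for Polr2l, -0.16 for Polr3c, -0.48 for Polr3d, -0.99 for Polr3k, -0.76 for Brf1, -0.12 for Tbp, -0.16 for Cdk9, -0.18 for Polrmt, -0.14 for Taf1c, -0.027 for Snapc5, -0.88 for Gpn2, -0.023 for Tfam and -0.35 for Tfb2m. Without enzyme genes it became -0.075 for Polr1d, -0.24 for Polr2j, -0.18 for Polr2l, -0.48 for Polr3k, -0.25 for Brf1 and -0.35 for Gpn2. Without WT replicates 1 and 3 it became -0.005 for Polr2j and -0.18 for Polr3k, and with scaling as well -0.95 for Polr1d, -0.14 for Polr2g, -0.79 for Polr2i, -1.20 for Polr2j, -0.62 for Polr2m, -0.68 for Polr2e, -0.92 for Polr2k, -0.78 for Polr2l, -0.29 for Polr3c, -0.063 for Polr3d, -1.23 for Polr3k, -0.70 for Brf1, -0.074 for Supt5h, -0.27 for Gtf3c6, -0.53 for Gpn2, -0.47 for Tfb2m and -0.16 for Znrd1. With 1 library left out, on either scale, the log2 changes spanned -0.59 to 1.66 for Polr1d, -0.36 to 1.75 for Polr2i, -0.66 to 1.48 for Polr2j, -0.35 to 1.64 for Polr2m, -0.094 to 2.13 for Polr2e, -0.55 to 1.69 for Polr2k, -0.64 to 1.25 for Polr2l, -0.024 to 1.58 for Polr3c, -0.19 to 0.99 for Polr3d, -0.82 to 0.84 for Polr3k, -0.52 to 0.85 for Brf1, -0.64 to 0.84 for Gpn2 and -0.24 to 1.35 for Tfb2m. The causes were not tested.

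The log2 ratio of RNA polymerase III to II subunits, 0.04 higher in Ela1-Myc, became 0.41 with medians in place of sums and -0.30 under quantile normalization, and ranged from -0.083 to 0.29 with 1 library left out. That of common to RNA polymerase II subunits, 0.56, became -0.27 with medians and 0.010 among members above 0 in all libraries. For RNA polymerase I the difference of 3.68 kept its sign. It became 2.84 with Polr1b alone, the member above 0 in all libraries, and 1.61 with Twistnb and Znrd1 added to Polr1b. The median could not be computed because the WT median is at 0 in 2 libraries. No paired analysis was possible because the labels carry no replicate numbers. Where 1 WT library remained, it was assumed to vary like the other group. Listed zeros in WT and the unknown depth limit the size of every difference.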
